A study of Mus musculus with 24 samples.

Results

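Mitochondrial ribosomal proteins are encoded in the nucleus, made in the cytosol and imported into mitochondria, where they assemble with ribosomal RNAs of the mitochondrial genome into a ribosome that makes a few core subunits of the respiratory chain and ATP synthase. Part of the set descends from the ribosomal proteins of bacteria, and the rest are additions found in mitochondria. In adipocytes the respiratory chain serves fatty acid oxidation, lipogenesis and, in brown and beige cells, heat production. Here their mRNAs were followed in mouse epididymal white adipose tissue (eWAT). Members were all genes of the deposited table whose symbol begins with Mrpl or Mrps and a digit, without symbols that mark pseudogenes, and 77 of 16730 genes met this rule. By their place in the ribosome, 50 belong to the large subunit and 26 to the small subunit. The remaining gene, Mrps36, carries a small-subunit name but encodes a component of the ketoglutarate dehydrogenase complex.

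RNA came from whole epididymal fat pads of 24 male mice and was measured by QuantSeq, which counts reads at the 3′ ends of polyadenylated transcripts. All mice carried Lama4 alleles with loxP sites around exon 3, and Lama4 encodes the laminin α4 chain of the basement membrane. Mice labeled Lama4 fl/fl had no Cre and served as controls, and mice labeled Lama4 AKO also carried Cre under the adiponectin promoter, which is active in adipocytes, while the pad as sampled also held vessels, immune cells and progenitors. Each genotype was fed regular chow or a high-fat diet (HFD) with 45% of calories from fat for 20 weeks, which gave 4 groups of 6 mice aged 24 to 26 weeks at the end. The study's figure legends give 24 weeks of age as the end of chow feeding and 26 weeks as the end of HFD feeding. Age thus ran with diet, and the effects of age and diet cannot be told apart in any diet comparison below. Each library is 1 mouse, so the spread between libraries holds differences between animals. Since whole tissue was lysed, fewer cells of a type and less RNA per cell cannot be told apart in any value below.

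Library totals ran from 5579590 to 18764500 counts. Each of the 6 adipocyte markers was detected in every library. Their lowest values ran from 38.8 CPM (counts scaled to the size of the library) for Pck1 to 764 CPM for Adipoq. This matches fat tissue and does not tell which pad it came from. The 6 adipocyte markers summed to 3797 to 14545 CPM in chow-fed Lama4 AKO mice and 2527 to 6111 CPM in HFD-fed Lama4 AKO mice, and the 6 macrophage markers to 715 to 3179 CPM and 2514 to 3697 CPM. In Lama4 fl/fl mice the diets overlapped widely, with adipocyte marker sums of 3783 to 17216 CPM on chow and 2513 to 14882 CPM on HFD. Macrophage marker sums in Lama4 fl/fl mice had medians of 2451 CPM on chow and 2448 CPM on HFD. Lama4 itself had a median of 91.7 CPM in chow-fed Lama4 fl/fl and 113 CPM in chow-fed Lama4 AKO libraries, and of 78.7 CPM and 44.3 CPM on HFD. The ranges overlapped on both diets, and the 3′ tags lie outside the deleted exon and do not check the genotype. Earlier work on these data inferred that the study set aside 5 libraries, namely HFD-fed Lama4 fl/fl replicates 3, 4 and 6, chow-fed Lama4 fl/fl replicate 3 and chow-fed Lama4 AKO replicate 5. In HFD-fed Lama4 fl/fl replicates 3, 4 and 6 the mean of the adipocyte markers was 9.40 to 10.9 log2 CPM, against 8.30 to 8.87 in the other 3 mice of that group. The 24 mice were the main set, and results that rest on these libraries are given with and without them.

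All 77 genes were expressed at a level that could be tested, and together they made up 3025 to 4583 CPM of a library. Mrps6, a small-subunit protein of bacterial descent, had the highest mean at 211 CPM. The 3 lowest were Mrps18b at 0.63 CPM, Mrpl23 at 0.981 CPM and Mrps36 at 1.33 CPM. These are levels of 3′ tags, not of protein. The 3′ end of 16 members is overlapped by another annotated gene, on the same strand for 4 of them (Mrpl2, Mrpl33, Mrps34 and Mrps6), and reads of such pairs may not have been separable in the counting.

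The genes lie on 17 chromosomes, and the positions deposited for all 77 equaled those of GENCODE release M21 on GRCm38. They are compact, with a median span of 7905 bases against 24525 bases for coding genes tested, and a median coding length of 588 bases against 1380. A further shared trait was a neighbor that starts close by on the opposite strand. Within 1000 bases of the start, 33 of 77 members (42.9%) had such a coding gene, compared with 15.2% of the 13291 coding genes tested. Several of these partners also act in mitochondria. Mrps12 pairs with Sars2, a mitochondrial seryl-tRNA synthetase, Mrpl36 with the complex I subunit gene Ndufs6, Mrpl47 with the complex I subunit gene Ndufb5, and Mrpl43 with Twnk, the helicase of mitochondrial DNA replication. Mrpl46 and Mrps11, of different subunits, share a start region with each other on chromosome 7, with starts 412 bases apart in GENCODE and the gene ends overlapping there. The RefSeq starts used for the promoters below differ for both genes and lie closer together.

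RefSeq promoter sequences on GRCm38.p6, from 250 bases before to 50 bases after the start, matched 68 of the 77 members, and the first listed start of each was searched on both strands. The GC-rich palindromic motif of NRF1, whose match can be read in the Mrpl44 promoter below, was present in 13 of 68, or 19.1%, against 4.78% of all 27025 promoters and 9.97% of the 10456 promoters of tested genes. The core motif of GABPA (CCGGAAG) was present in 24, or 35.3%, against 9.12% and 17.3%, and the motif of YY1 (AAGATGGC) in 12, or 17.6%, against 2.88% and 4.53%. At least 1 of these was found in 41 members (60.3%), in 15.2% of all promoters and in 28.3% of those of tested genes. CCAAT was present in 38.2% of members, 37.9% of all promoters and 38.3% of those of tested genes, and TATAAA in 5.88%, 14.2% and 7.62%. The 5 promoters below were picked to show this range, with matches to these 3 motifs in capitals on either strand. Mrps18a and Mrps12 each hold a GABPA and a YY1 match, and Mrpl44 an NRF1 match. Mrps11 holds a YY1 match at position -107 from its listed start, outside the window of Mrpl46. Mrpl48 holds none at the first of its 4 listed starts.
Mrps18a (chr17:46110754-46111053, forward strand): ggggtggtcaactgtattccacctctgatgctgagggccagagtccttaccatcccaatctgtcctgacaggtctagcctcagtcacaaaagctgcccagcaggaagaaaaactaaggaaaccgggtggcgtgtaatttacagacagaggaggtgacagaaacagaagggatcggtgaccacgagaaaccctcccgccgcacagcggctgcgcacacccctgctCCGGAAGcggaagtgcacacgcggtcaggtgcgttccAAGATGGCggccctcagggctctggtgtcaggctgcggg
Mrps12 (chr7:28741772-28742071, reverse strand): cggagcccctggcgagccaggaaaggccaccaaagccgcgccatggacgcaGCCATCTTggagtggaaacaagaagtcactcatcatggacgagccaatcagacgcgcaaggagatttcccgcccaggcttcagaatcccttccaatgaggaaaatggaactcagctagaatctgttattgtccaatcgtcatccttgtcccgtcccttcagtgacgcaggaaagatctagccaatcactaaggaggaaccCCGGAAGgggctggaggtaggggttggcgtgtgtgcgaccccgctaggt
Mrpl44 (chr1:79775768-79776067, forward strand): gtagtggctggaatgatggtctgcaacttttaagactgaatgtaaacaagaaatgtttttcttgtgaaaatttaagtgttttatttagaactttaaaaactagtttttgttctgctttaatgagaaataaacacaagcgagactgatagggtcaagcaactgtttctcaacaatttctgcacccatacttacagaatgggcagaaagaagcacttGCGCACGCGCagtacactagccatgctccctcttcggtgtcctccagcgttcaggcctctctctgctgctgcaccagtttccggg
Mrps11 (chr7:78782881-78783180, forward strand): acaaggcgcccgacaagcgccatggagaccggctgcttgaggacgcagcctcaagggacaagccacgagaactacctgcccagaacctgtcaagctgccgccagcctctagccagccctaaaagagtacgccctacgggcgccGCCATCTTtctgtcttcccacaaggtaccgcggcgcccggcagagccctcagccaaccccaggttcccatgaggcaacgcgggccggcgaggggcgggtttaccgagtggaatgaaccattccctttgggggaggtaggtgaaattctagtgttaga
Mrpl48 (chr7:100608252-100608551, reverse strand): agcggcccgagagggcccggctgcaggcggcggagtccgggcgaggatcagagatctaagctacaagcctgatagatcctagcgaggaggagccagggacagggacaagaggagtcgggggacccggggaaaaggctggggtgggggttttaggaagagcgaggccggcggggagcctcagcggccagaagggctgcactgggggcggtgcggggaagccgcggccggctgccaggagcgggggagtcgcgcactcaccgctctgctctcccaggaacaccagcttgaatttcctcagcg
A match describes letters in this window and not binding. The members with and without a motif lay close together in their response to diet, which is given as a description. The median log2 fold change of HFD against chow, averaged over genotypes, was -0.11 in members with and -0.07 without the NRF1 motif, -0.01 and -0.08 for GABPA, and -0.06 and -0.07 for YY1.

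The first comparison asks how HFD feeding changed these mRNAs. Averaged over both genotypes, the set stayed close to its chow level. The median log2 fold change of the 77 members was -0.06, against -0.00 for all 15020 genes tested, with 49 members below 0 and 28 above. Changes were small in size, and their median without regard to sign was 0.13 on the log2 scale for the members and 0.27 for all genes. The genes set beside the members here were not matched to them in abundance. By the criteria of the study (fold change 1.5 or more, unadjusted p no higher than 0.001, and 2 CPM or more on average in whichever group is higher) none of the 77 was called, where 2.22% of all genes were. At an adjusted p-value of at most 0.05 (edgeR, Benjamini-Hochberg over all genes tested) 2 members, or 2.6%, were lower on HFD and 0 higher, where 6.98% of all genes were lower and 5.39% higher. The 2 were Mrpl48 and Mrps18b.

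Mrpl48 encodes a mitochondria-specific protein of the large subunit. It ranged from 19.6 to 49.9 CPM with a median of 42.1 in chow-fed Lama4 fl/fl mice, and from 26 to 46.9 CPM with a median of 37.9 in chow-fed Lama4 AKO mice. On HFD it ranged from 19.5 to 42.7 CPM with a median of 30.5 in Lama4 fl/fl and from 18.8 to 28.8 CPM with a median of 21.6 in Lama4 AKO mice. The chow-fed Lama4 fl/fl value of 19.6 CPM came from replicate 3, and the other 5 mice of that group lay at or above 39.9 CPM, a level that on HFD in this genotype replicate 6 alone reached, at 42.7 CPM. In Lama4 AKO mice the diets overlapped through chow-fed replicate 5 and HFD-fed replicate 6. The log2 fold change was -0.58 ± 0.16 (SE, n = 12 against 12, edgeR adjusted p = 0.03). Without the 5 libraries it was -0.95 (adjusted p = 2.89e-06). The call was lost when any of chow-fed Lama4 fl/fl replicates 4 or 5, chow-fed Lama4 AKO replicate 3 or HFD-fed Lama4 fl/fl replicates 1 or 5 was left out, with adjusted p up to 0.0556. The count of 2 members rose to 9 without chow-fed Lama4 fl/fl replicate 3, to 8 when replicate 4 of the HFD-fed Lama4 fl/fl mice was dropped, to 5 without chow-fed Lama4 AKO replicate 5 or 6, HFD-fed Lama4 fl/fl replicate 6 or HFD-fed Lama4 AKO replicate 6, and to 4 when replicate 3 of the HFD-fed Lama4 fl/fl mice was dropped. The count was 0 without each of the 5 mice that ended the call of Mrpl48, and 1 without any other mouse except HFD-fed Lama4 fl/fl replicate 2, where it stayed 2.

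In Lama4 AKO mice, HFD feeding was accompanied by lower levels of 7 members (9.09%) and higher levels of 0 at an adjusted p of at most 0.05 (edgeR). Of all genes, 12.9% were lower and 9.13% higher in this comparison. None of the 77 met the criteria of the study, which 4.12% of all genes met. Of the 7, 4 belong to the large subunit, namely Mrps18a, Mrpl48, Mrpl50 and Mrpl11, and 3 to the small subunit, namely Mrps18b, Mrps5 and Mrps31. Mitochondria-specific proteins account for 5 of the 7, out of 30 such members, and proteins with a bacterial homolog for 2, out of 46. In this split Mrps18a and Mrps18b, which are extra relatives of a bacterial protein whose direct counterpart is Mrps18c, were classed as mitochondria-specific. Classed with the bacterial homologs, they would leave 3 of the 7 as mitochondria-specific. The median over the 77 was -0.05, so the 7 stood below a set that as a whole lay near 0.

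Mrps18a is named after the small subunit but sits in the large subunit. It had 25.1 to 29.8 CPM with a median of 26.2 in chow-fed and 16.7 to 23.7 CPM with a median of 19 in HFD-fed Lama4 AKO mice, and the 2 groups did not overlap. The log2 fold change was -0.47 ± 0.12 (SE, n = 6 against 6, edgeR adjusted p = 0.0207). In Lama4 fl/fl mice the change was 0.17 with an adjusted p of 0.701.

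Mrpl50, a mitochondria-specific large-subunit protein, had 26.6 to 50.6 CPM with a median of 40.1 on chow and 23.9 to 28.6 CPM with a median of 26.3 on HFD in Lama4 AKO mice. Chow-fed replicate 6 alone fell within the range of the HFD-fed group, and the log2 fold change was -0.56 (edgeR adjusted p = 0.0295). Mrpl11, the counterpart of the bacterial protein at the base of the factor-binding stalk, had 36.7 to 62.2 CPM with a median of 50.3 on chow and 34.7 to 44.2 CPM with a median of 37.9 on HFD. Its groups overlapped, and the log2 fold change was -0.38 (edgeR adjusted p = 0.0465). For Mrpl48 the ranges in Lama4 AKO mice given above touched between 26 and 28.8 CPM, with a log2 fold change of -0.74 (edgeR adjusted p = 0.0277).

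On the small subunit, Mrps5, whose bacterial counterpart lies where mRNA enters the ribosome, had 41.0 to 60.1 CPM with a median of 51.8 on chow and 16.3 to 40.1 CPM with a median of 32.2 on HFD in Lama4 AKO mice. The groups did not overlap, and the lowest HFD-fed value came from replicate 2, with the other 5 at or above 29.1 CPM. The log2 fold change was -0.75 ± 0.26 (SE, n = 6 against 6, edgeR adjusted p = 0.0406). Mrps31, a mitochondria-specific protein of the small subunit, had 14.9 to 22.8 CPM with a median of 19.1 on chow and 6.94 to 15.8 CPM with a median of 8.92 on HFD. HFD-fed replicate 6, at 15.8 CPM, was the library that overlapped with chow, and the others did not exceed 9.2 CPM. The log2 fold change was -0.97 ± 0.34 (SE, n = 6 against 6, edgeR adjusted p = 0.0442), and among the 7 only the scarce Mrps18b had a larger one.

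Single libraries decided how many of these calls were made. Without chow-fed Lama4 AKO replicate 3 the count in Lama4 AKO mice was 0, and without chow-fed Lama4 AKO replicate 5 or HFD-fed Lama4 AKO replicate 6 it was 12. It was 1 without HFD-fed Lama4 AKO replicate 4 or 5, 2 without chow-fed Lama4 AKO replicate 1, 4 without chow-fed Lama4 AKO replicate 2 or 4 or HFD-fed Lama4 AKO replicate 1, 2 or 3, and 11 when mouse 1 among chow-fed Lama4 fl/fl controls was dropped. The size of the changes moved less, and over all 31 alternatives Mrps18a stayed between -0.54 and -0.42 and Mrps31 between -1.17 and -0.90. Between the same diets the 6 adipocyte markers had a median log2 fold change of -1.11 and the 6 macrophage markers of 1.06 in Lama4 AKO mice.

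**Figure D1:**
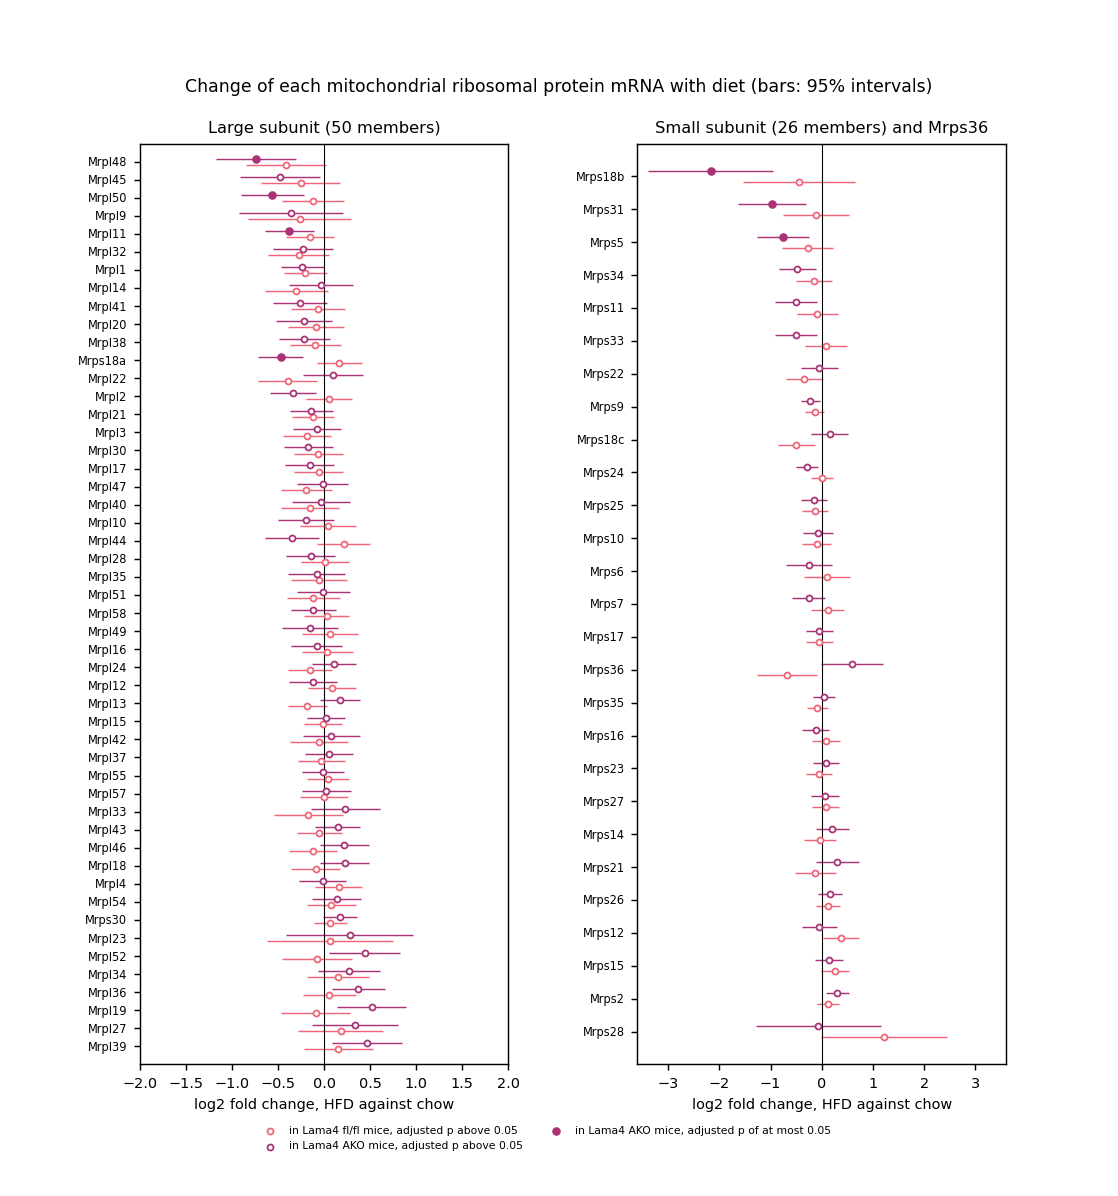
Log2 fold change of HFD against chow (horizontal axis, different in the 2 panels) for each member (vertical axis, sorted within subunits by the change averaged over genotypes) in Lama4 fl/fl and Lama4 AKO mice, 6 mice per group, with 95% intervals by a normal approximation. Filled points mark the 7 members with an edgeR adjusted p of at most 0.05, all of them lower and all in Lama4 AKO mice, and most open points lie near 0.

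In Lama4 fl/fl mice no member passed an adjusted p of at most 0.05 with edgeR, limma-voom or DESeq2, and in edgeR no gene in the whole table did (0%). At an unadjusted p under 0.05, 3 members were lower and 1 higher, where 3.52% of all genes were lower and 5.49% higher. None met the criteria of the study, which 0.173% of genes met. The lowest p was that of Mrps18c, which had 39.3 to 98.3 CPM with a median of 71.5 on chow and 46.3 to 64.9 CPM with a median of 47.9 on HFD, with a log2 fold change of -0.50 (edgeR adjusted p = 0.448). Mrps12, the counterpart of a bacterial protein of the decoding center, had 44.9 to 83.9 CPM with a median of 62.3 on chow and 49.3 to 110 CPM with a median of 81.0 on HFD (log2 fold change 0.38, edgeR adjusted p = 0.533). Both pairs of groups overlapped widely. Mrpl22, which lines the exit tunnel in bacteria, had a log2 fold change of -0.40 (edgeR adjusted p = 0.502), and Mrps15 of 0.26 (edgeR adjusted p = 0.591).

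The comparison in Lama4 fl/fl mice depended on which mice were used. Without the 5 libraries, 14 members passed an adjusted p of at most 0.05 (edgeR), 8 lower and 6 higher, where 15.5% of all genes were lower and 13.6% higher. In Lama4 AKO mice 12 were lower and 3 higher, where 21.4% and 18.9% of all genes were, and averaged over genotypes 15 were lower and 9 higher, where 26.7% and 25.2% were. By the criteria of the study 5 members were called on average (21.2% of all genes), 4 in Lama4 fl/fl (11.8%) and 3 in Lama4 AKO mice (15.7%). Mrpl48 at -0.95, Mrps31 at -1.16, Mrps5 at -0.89, Mrpl9 at -0.88 and Mrps11 at -0.60 were the 5 called on average, and all were lower on HFD. Mrpl9 and Mrps11 fall outside the rule for named members and, like the members named in the accounts of levels, spread, promoters and adipocyte markers beyond that rule, were chosen after their values were seen. The study itself, after removing outlier libraries, reported Mrpl9 as differentially expressed between the genotypes on HFD and between the diets in Lama4 fl/fl mice. The shares of members stayed below those of all genes in each of these 9 counts. The HFD-fed libraries left out had more adipocyte marker RNA than the rest of their group, and all 5 were picked by their expression, so their removal gives no independent support to a difference between diets.

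No member passed the adjusted threshold with a higher level on HFD in the 24 mice (edgeR), and Mrpl19 and Mrps2 came closest in Lama4 AKO mice. Mrpl19, a large-subunit protein at the interface of the subunits, had 13.7 to 23.2 CPM with a median of 17.1 on chow and 22.2 to 28.1 CPM with a median of 25.6 on HFD in Lama4 AKO mice. Chow-fed replicate 5 alone reached the HFD-fed range, and the log2 fold change of 0.52 had an edgeR adjusted p of 0.0533. DESeq2 gave an adjusted p of 0.0386 and limma-voom 0.0449. Mrps2, of the small subunit, had 28.2 to 36.1 CPM on chow and 37.2 to 51.0 CPM on HFD in Lama4 AKO mice, which did not overlap (log2 fold change 0.30, edgeR adjusted p = 0.0573). Averaged over genotypes, Mrps2 had a log2 fold change of 0.21 (edgeR adjusted p = 0.0714) and Mrpl39, a mitochondria-specific protein related to a tRNA synthetase, of 0.31 (adjusted p = 0.109). Mrps9, a small-subunit protein of bacterial descent had -0.18 (adjusted p = 0.0613).

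**Figure D2:**
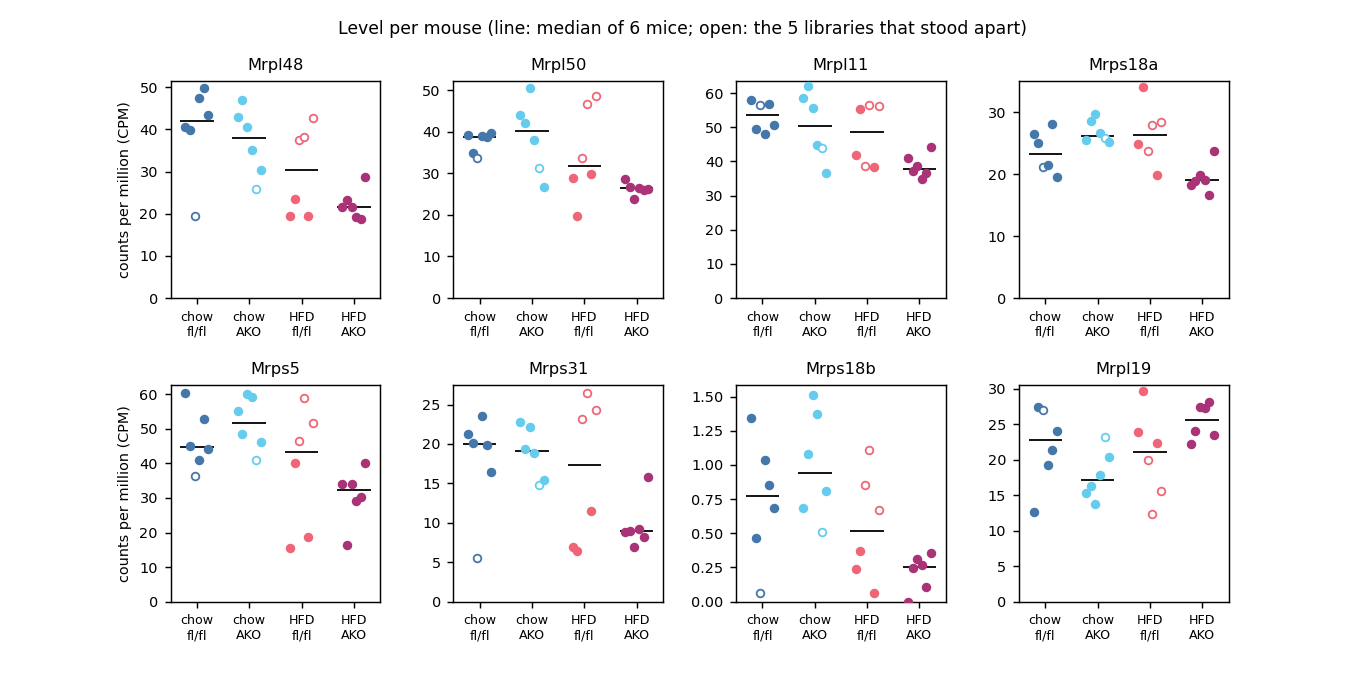
CPM of 8 members in each of the 24 mice by diet and genotype label, with the group median as a line and the 5 libraries that were left out in the alternative as open circles. For Mrpl48 and Mrps31 the open circles of HFD-fed Lama4 fl/fl mice lie at chow levels and the other 3 mice of that group at the levels of HFD-fed Lama4 AKO mice.

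The second question was whether the Lama4 AKO label changed these mRNAs on either diet. No member passed an adjusted p of at most 0.05 on chow, on HFD or for the interaction with edgeR, limma-voom or DESeq2, and the table as a whole held 0% on chow, 0% on HFD and 0.00666% for the interaction (edgeR). None met the criteria of the study either, where 0.113%, 0.173% and 0.386% of all genes did. At an unadjusted p under 0.05 on chow, 10 members were lower in Lama4 AKO (13%) and 0 higher, where 3.22% of all genes were lower and 2.62% higher. On HFD 8 were lower (10.4%) and 1 higher, where 8.99% and 5.83% were. For the interaction 4 were lower and 5 higher, where 8.74% and 6.82% were. The median log2 fold change of the members was -0.08 on both diets. Without the 5 libraries 2 members on HFD met the criteria of the study (2.6%), where 0.565% of genes did, namely Mrpl9 at 0.98 and Mrps12 at -0.65, with edgeR adjusted p of 0.125 and 0.128. On chow 2 members were then lower and 1 higher at an unadjusted p under 0.05, where 4.02% and 4.48% of all genes were.

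The lowest p on chow belonged to Mrps18c, with the 39.3 to 98.3 CPM given above in Lama4 fl/fl and 33.5 to 75.6 CPM with a median of 43.4 in Lama4 AKO mice. The groups overlapped, and the log2 fold change was -0.61 ± 0.19 (SE, n = 6 against 6, edgeR adjusted p = 0.652). Mrpl13, a bacterial-type large-subunit protein, had -0.27 and Mrpl46 -0.31, with edgeR adjusted p of 0.804 and 0.831. On HFD Mrpl44, a mitochondria-specific large-subunit protein with an RNase III fold, had 18.2 to 27.9 CPM with a median of 24.4 in Lama4 fl/fl and 11.8 to 19.8 CPM with a median of 16 in Lama4 AKO mice. These groups overlapped between 18.2 and 19.8 CPM, and the log2 fold change was -0.55 ± 0.15 (SE, n = 6 against 6, edgeR adjusted p = 0.291). Mrps33, of the small subunit, had 11.2 to 25.8 CPM against 6.39 to 13.5 CPM (log2 fold change -0.74, edgeR adjusted p = 0.291). The comparisons on HFD and those of diet share the HFD-fed libraries, so that a low value in HFD-fed Lama4 AKO mice enters both.

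The 3 genes of the S18 family had different values in the diet comparisons. All are related to a single bacterial protein, and Mrps18a lies in the large subunit and Mrps18b and Mrps18c in the small subunit. For Mrps18a the diet effect was 0.17 in Lama4 fl/fl and -0.47 in Lama4 AKO mice, and the interaction was -0.64 ± 0.18 (SE, edgeR unadjusted p = 0.00137, adjusted p = 0.229). Mrps18c had the opposite order, with -0.50 in Lama4 fl/fl and 0.15 in Lama4 AKO mice (interaction 0.65, adjusted p = 0.272). Mrps18b was scarce, with 0.0639 to 1.34 CPM on chow in Lama4 fl/fl, 0.512 to 1.51 CPM on chow in Lama4 AKO, 0.0616 to 1.11 CPM on HFD in Lama4 fl/fl and at most 0.358 CPM on HFD in Lama4 AKO mice. HFD-fed Lama4 AKO replicate 1 had 0 counts, which is compatible with as many as 3 counts in that library if counting error alone is considered. The 2 diets did not overlap in Lama4 AKO mice, and the log2 fold change was -2.17 there (edgeR adjusted p = 0.024) and -1.31 on average (adjusted p = 0.0441). Over the 31 alternatives Mrps18b no longer passed on average in 19, with Benjamini-Hochberg adjusted p up to 0.0788, and in Lama4 AKO mice in 3. With a mean under 2 CPM in every group it could not meet the criteria of the study, and an antisense gene, Gm16279, covers its 3′ end.

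Mrps36, which is not a ribosomal protein, had opposite signs of the diet effect in the 2 genotypes. It had 0.412 to 2.50 CPM with a median of 1.62 in chow-fed and 0.737 to 1.18 CPM with a median of 1.07 in HFD-fed Lama4 fl/fl mice. In Lama4 AKO mice it had 0.657 to 1.63 CPM with a median of 1.04 on chow and 1.16 to 2.0 CPM with a median of 1.63 on HFD. The diet effects were -0.68 and 0.59, and the interaction of 1.26 ± 0.43 (SE, edgeR) had an unadjusted p of 0.0069 and an adjusted p of 0.246. Between mice of a group its levels correlated with the large-subunit members with a median r of -0.09, where pairs of large-subunit members had a median of 0.30, large with small 0.26 and small with small 0.19. These correlations are over 24 libraries that share depth and tissue makeup, and are given as a description. Mrps36 had 426 counts in all, so counting error weighs more on its values than on those of most members. Whether this lowered its correlations was not tested.

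Among mice of a group, the members varied less than other genes, given here as a description. Their median SD between mice was 0.24 log2 CPM, against 0.42 for all genes tested. For genes of like abundance, between 4.72 and 5.81 log2 CPM, it was 0.23 for 39 members and 0.32 for all 2531 genes. Mrps9 at 0.12 and Mrps30 at 0.12 were the steadiest. Some members varied far more. Mrps28, a small-subunit protein, had an SD of 1.5 and ran from 0.369 CPM in HFD-fed Lama4 fl/fl replicate 2 to 42.9 CPM in replicate 5 of the same group. Its medians were 12.0 and 11.7 CPM on chow and 28.3 and 15.4 CPM on HFD in Lama4 fl/fl and Lama4 AKO mice, and all groups overlapped (log2 fold change 1.21 in Lama4 fl/fl, edgeR adjusted p = 0.585). In the library with the lowest Mrps28, Mrpl46 had its highest value of the 24 mice, 38.6 CPM, and chow-fed Lama4 fl/fl replicate 3, with 3.45 CPM of Mrps28, had the next highest, 36.4 CPM. HFD-fed Lama4 fl/fl replicate 2 also held the lowest values of Mrpl27, 19.5 CPM against 56.3 CPM or more elsewhere, and of Mrpl9, 2.33 CPM. Mrps21, at 22.3 CPM on average, had 11.6 and 8.17 CPM in chow-fed Lama4 AKO replicates 3 and 4 and at least 17.7 CPM in every other library.

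**Figure D3:**
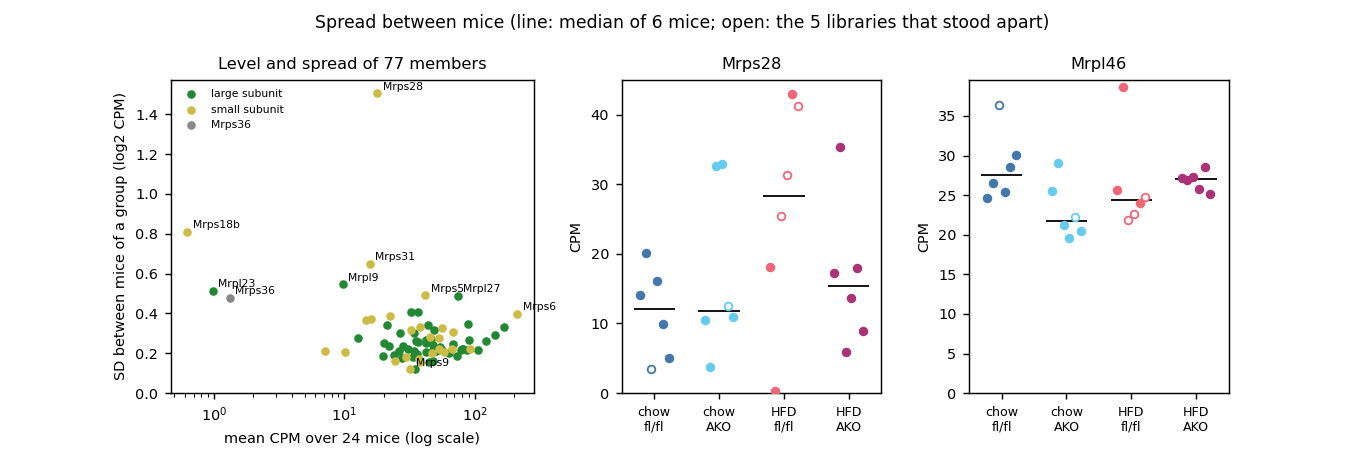
Left, SD between mice of a group in log2 CPM (vertical axis) against mean CPM over 24 mice (horizontal, log scale) for the 77 members, and middle and right, CPM of Mrps28 and Mrpl46 per mouse with group medians as lines and the 5 libraries that stood apart as open circles. Most members lie below an SD of 0.42, the median of all genes, and Mrps28 at 1.5 stands apart.

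Because the adipocyte markers moved with diet in Lama4 AKO mice, each member was also set against the mean log2 CPM of the 6 markers within groups. Group means were removed, and all 24 libraries were used. This relation was added after the data were examined. At an adjusted p of at most 0.05 for Pearson r (permutation within groups, two-sided, Benjamini-Hochberg over 15020 genes) 15 members (19.5%) were positively and 2 (2.6%) negatively related to the markers, where 24% and 25.6% of all genes were. The positive members were Mrps34, Mrpl10, Mrpl2, Mrpl50, Mrpl49, Mrps5, Mrps7, Mrps6, Mrps31, Mrpl48, Mrps24, Mrpl11, Mrps18b, Mrpl17 and Mrpl37, and the negative ones Mrpl19 and Mrpl52. Mrps18a was not among them (r = 0.37, permutation adjusted p = 0.213).

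Mrpl19 had the strongest relation, with Pearson r = -0.90 and Spearman rho = -0.88 (n = 24, permutation p = 1e-05 for both, the smallest that the permutations can give, adjusted p = 9.9e-05 and 0.000121). Leaving out the 2 libraries farthest from the median marker level gave r = -0.81, and within single groups r ran from -0.96 to -0.34. Mrps34 had r = 0.77 and rho = 0.79 (permutation p = 0.00023 and 0.00015), r = 0.69 without the 2 farthest libraries, and 0.61 to 0.87 within groups. Mrpl50 had r = 0.71 and rho = 0.79 (permutation p = 0.00091 and 0.00012) and 0.75 without the 2 libraries, but -0.16 among HFD-fed Lama4 AKO mice. Mrps31 had r = 0.66 and rho = 0.70 (permutation p = 0.00849 and 0.00123), 0.64 without the 2 libraries, and 0.29 to 0.997 within groups. Without the 5 libraries, 8 members were positively and 1 negatively related, where 15.3% and 15.9% of all genes were, and Mrpl48, Mrpl50 and Mrps18b were among those that no longer passed (permutation adjusted p = 0.142, 0.127 and 0.201). In these 19 mice r was -0.80 for Mrpl19, 0.66 for Mrps34, 0.39 for Mrpl50 and 0.50 for Mrps31. Whether tissue makeup accounts for the differences between diets was not tested.

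**Figure D4:**
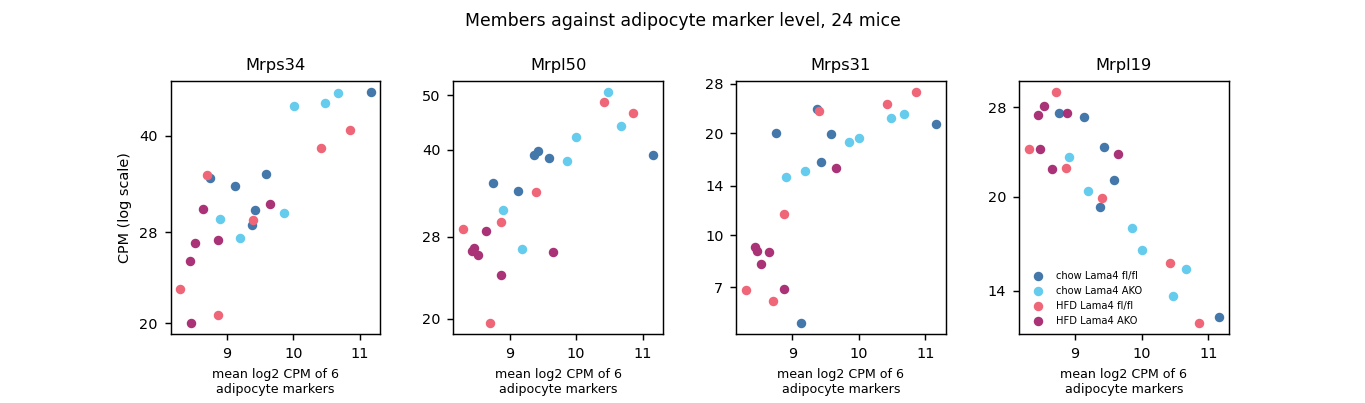
CPM of 4 members (log scale) against the mean log2 CPM of 6 adipocyte markers in 24 mice, colored by group. Mrps34, Mrpl50 and Mrps31 tend to be higher in libraries with more adipocyte marker RNA, and Mrpl19 lower, with r = -0.90 after removal of group means.

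The other genes of mitochondrial translation were counted in the same way for HFD averaged over genotypes, where 6.98% of all genes were lower and 5.39% higher. Of 5 mitoribosomal proteins with other names, 0 passed an adjusted p of at most 0.05 (edgeR) and 1 an unadjusted p under 0.05, and Gadd45gip1 and Aurkaip1 had log2 fold changes of 0.25 and 0.16 (edgeR adjusted p = 0.0884 and 0.225). Of 15 translation factors, 2 were lower and 1 higher, among them Mtif2, the initiation factor, at -0.72 and Lrpprc, which stabilizes mitochondrial mRNAs, at 0.61. Of 22 mitochondrial aminoacyl-tRNA synthetases, 1 was higher, Tars2 at 0.36, and Hars2 had 0.31 (edgeR adjusted p = 0.0612). Of 28 assembly and rRNA modification factors, 1 was higher, the GTPase Noa1, at 0.38, and Ddx28 had 0.35 (edgeR adjusted p = 0.0539). Medians of these lists lay between 0.01 and 0.08, beside -0.06 for the members and -0.00 for all genes.

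Among 13 tested regulators of mitochondrial transcription and biogenesis, 1 was lower and 2 were higher, beside the same shares of all genes, with Yy1, a transcription factor, at -0.58 (edgeR adjusted p = 0.0219) and Pprc1, a coactivator of nuclear-encoded mitochondrial genes, at 0.67 (edgeR adjusted p = 0.0286). Of 8 RNAs encoded by mitochondrial DNA, 3 were lower, beside the 6.98% of all genes, among them mt-Co1, a catalytic subunit of cytochrome c oxidase, at -0.56 and mt-Nd6 at -1.54. The transcript of mt-Nd6 is made from the strand opposite to most others, and its counts may hold reads of the other strand. Of 14 markers of mitochondrial mass, 2 were lower, the import protein Timm44 at -0.46 and the cristae protein Immt at -0.51, and the median was -0.06. Cytosolic ribosomal proteins, a list of 78 genes set up by symbol after the data were examined, had a median log2 fold change of -0.26 in Lama4 fl/fl and 0.42 in Lama4 AKO mice, where the mitochondrial ribosomal proteins had -0.06 and -0.05.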

How the data were processed

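RNA from the epididymal fat pads of 24 mice was sequenced by QuantSeq. The authors deposited raw counts per gene and a signal table in which these counts are scaled by library size factors. The submitters' notes name GRCm38 (mm10), R 4.0.3 and DESeq2 1.30, and whether counting used strand is not given in the sources used here. Members were identified in the normalized table and tested on the deposited counts, and 0 columns were left unmapped.

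The fit covered the 15020 genes that reached 1 CPM in 3 or more mice, all 77 members included. It was made with edgeR 4.0.16 (TMM, quasi-likelihood test, 4 groups in a single fit) in R 4.3.3, with Benjamini-Hochberg adjustment over all genes. The alternatives were RLE factors, library totals alone, DESeq2 1.42.0, limma-voom (limma 3.58.1), no filter, 19 mice, a replicate block and leaving out each mouse in turn. The relation to adipocyte markers used log2 CPM with a prior count of 2 and 100000 permutations within groups (Python 3.11.15, numpy 2.4.6). The edgeR, limma-voom and DESeq2 fits were run on simulated data as a check of the code. The planted changes were larger than most changes reported here, so this check does not bear on small changes. Within groups, no 2 libraries agreed within sampling noise (60 pairs, chi-square per degree of freedom at least 5.22).

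The members and lists were chosen with earlier results of these data known. Named members were the 6 with the lowest p in each diet comparison, the 3 with the lowest p in each genotype comparison and the interaction, the 2 with the lowest p of opposite sign to the median in each diet comparison, the S18 family, Mrps36, and the members of highest and lowest mean. Of each other list the 2 genes of lowest p were named. Floors of counts cover counting error only. The intervals of fold changes rest on the SE of the edgeR fit, which includes the spread between mice. They use a normal approximation and are somewhat narrower than the edgeR test implies. For Mrps11 averaged over genotypes the interval was -0.585 to -0.007, with an unadjusted edgeR p of 0.056.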

Additional observations from a re-analysis of the deposited data

Results flagged for a closer look

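In groups of 6 mice, 12 of 92 sets of values held a mouse set apart from the others by a gap that, relative to the range of its group, exceeded Dixon's critical value, and chance gives such a mouse in about 1 in 20 groups. In HFD-fed Lama4 fl/fl replicate 2, Mrps28 was at 0.369 CPM, with the others at 18.1 CPM or more, and Mrpl46 at 38.6 CPM, with the others at 25.6 CPM or less. In chow-fed Lama4 fl/fl replicate 3, which is among the 5 libraries left out in the alternative, Mrpl48 was at 19.6 CPM and Mrps31 at 5.5 CPM, with the others at 39.9 and 16.5 CPM or more. In chow-fed Lama4 fl/fl replicate 1, which had the highest adipocyte marker level of all libraries, Mrpl13 was at 40.3 CPM and Mrps36 at 0.412 CPM, with the others at 53.1 and 1.52 CPM or more. In chow-fed Lama4 AKO replicate 5, Mrps2 was at 28.2 CPM, with the others at 34.3 CPM or more.

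In HFD-fed Lama4 AKO replicate 2, Mrps5 was at 16.3 CPM and Mrpl22 at 9.2 CPM, with the others at 29.1 and 13.0 CPM or more, and Mrps12 was at 73.2 CPM, with the others at 63.1 CPM or less. In the same group, Mrps31 was at 15.8 CPM in replicate 6, with the others at 9.2 CPM or less, and Mrpl13 at 55.0 CPM in replicate 1, with the others at 49.7 CPM or less. What sets these mice apart was not tested.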

How the results depend on the processing

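By the study criteria no member was called in the 24 mice. With 19 mice the counts were 5 averaged over genotypes, 4 in Lama4 fl/fl, 3 in Lama4 AKO and 2 for genotype on HFD. DESeq2 gave 1 for genotype on HFD and 1 for the interaction, and library totals alone gave 1 for the interaction. Leaving out single mice gave 0 to 1, except for genotype on HFD with 0 to 2. At an adjusted p of at most 0.05, the count averaged over genotypes (2) was 7 with DESeq2 and 24 with 19 mice. It ran from 0 (without chow-fed Lama4 fl/fl replicate 4 or 5, chow-fed Lama4 AKO replicate 3, or HFD-fed Lama4 fl/fl replicate 1 or 5) to 9 (without chow-fed Lama4 fl/fl replicate 3). The count in Lama4 AKO mice (7) was 13 with DESeq2 and 15 with 19 mice, and ran from 0 to 12 without single mice. In Lama4 fl/fl mice it was 14 with 19 mice. The replicate block gave 1 and 4, but the replicate numbers did not pair the samples (36 pairs, r -0.53 to 0.71, 19 positive). Mrps36 averaged over genotypes turned from -0.04 to 0.0022 with library totals alone, to 0.0115 with limma-voom and ran from -0.14 to 0.0477 without single mice, and Mrps6 ran from -0.16 to 0.0057, the latter without chow-fed Lama4 AKO replicate 2. The relation to adipocyte markers, whose alternatives were chosen after seeing the data, gave 8 positive and 1 negative member with 19 mice and 11 and 4 with macrophage markers at opposite sign. Where the construction (fewer mice) does not give it, the cause was not tested. Mrps18b and Mrps36, under 2 CPM in most mice, are limited by depth.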
